A study of Homo sapiens with 8 samples.

Results

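The calcineurin and NFAT genes were examined in SK-UT-1, an established human uterine leiomyosarcoma cell line. The set holds 9 of the 60282 genes listed and was chosen by gene symbol: the calcineurin catalytic subunits PPP3CA and PPP3CB, the regulatory subunit PPP3R1, the transcription factors NFATC1, NFATC2, NFATC3, NFATC4 and NFAT5, and the calcineurin regulator RCAN1. The genes were picked with the response to treatment already known, so their differences are given as a description and without p-values. SK-UT-1 cells received TP-472, a small-molecule inhibitor of the bromodomain protein BRD9, at 5 µM for 48 h (4 libraries), or DMSO as vehicle (4 libraries). All groups come from this single cell line, and the labels do not say whether replicates were separate cultures. The methods of the study speak of biological replicates for its experiments in general. If these libraries were not separate cultures, the spread between them is technical. In RNA from whole cultures, fewer cells that express a gene and less RNA per cell cannot be told apart.

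Calcineurin is a protein phosphatase that is switched on by calcium and calmodulin. It is built from a catalytic A subunit and a calcium-binding B subunit. Active calcineurin removes phosphates from the cytoplasmic factors NFATC1 to NFATC4, which then enter the nucleus, bind DNA around the core GGAAA, often next to AP-1 proteins, and are sent back out after kinases rephosphorylate them. NFAT5 shares the DNA-binding domain but lacks the calcineurin docking region and is known as the regulator of the response to hypertonic stress. RCAN1 binds and restrains calcineurin, and its shorter isoform, which begins at an internal start site, is a known NFAT target, which makes it a common readout of the pathway. In smooth muscle the pathway is known for coupling calcium entry to gene expression. mRNA levels do not show the phosphorylation or location of NFAT proteins.

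Promoter sequences of RCAN1 and NFATC4, the 2 genes on which the results turn, are shown so that their NFAT core motifs can be compared. They were taken from RefSeq on GRCh38.p14, which matched 6 of the 9 genes with 15 start sites, among them 6 of RCAN1 and 3 of NFATC4. The first sequence below lies upstream of an RCAN1 start site 88320 bases downstream of the gene's 5′ end, the most upstream of the 3 listed starts deep inside the gene, on the minus strand (chr21:34526964-34527072). It was chosen among the 6 RCAN1 starts for its motifs. The second precedes the most upstream start of RCAN1 (chr21:34615143-34615363, minus strand), and the third the most upstream listed start of NFATC4 (chr14:24366661-24366910, plus strand). Each is written 5′ to 3′ and stops where an annotated exon begins, which for the first sequence is within the 250 bases before the start site. Capitals mark GGAAA, read as TTTCC on the other strand, and the cAMP response element TGACGTCA.
RCAN1 internal start: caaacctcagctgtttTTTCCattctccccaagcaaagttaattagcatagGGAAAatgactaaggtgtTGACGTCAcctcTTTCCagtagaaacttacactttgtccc
RCAN1 most upstream start: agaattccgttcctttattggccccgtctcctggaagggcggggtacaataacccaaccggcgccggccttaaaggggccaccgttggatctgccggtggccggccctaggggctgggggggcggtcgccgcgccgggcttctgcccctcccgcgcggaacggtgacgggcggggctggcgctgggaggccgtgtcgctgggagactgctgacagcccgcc
NFATC4 most upstream start: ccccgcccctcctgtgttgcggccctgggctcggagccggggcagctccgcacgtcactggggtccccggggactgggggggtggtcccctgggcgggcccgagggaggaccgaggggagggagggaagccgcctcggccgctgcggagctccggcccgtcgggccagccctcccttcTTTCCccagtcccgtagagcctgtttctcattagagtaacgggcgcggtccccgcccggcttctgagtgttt

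The stretch before this internal RCAN1 start held 3 copies of GGAAA and 1 of TGACGTCA in 109 bases, and the one before the upstream RCAN1 start held neither. The NFATC4 stretch held 1 copy of GGAAA in 250 bases. The windows of the same length before the other listed NFATC4 starts held no GGAAA. Within 100 bases of the most downstream of these, 8 annotated transcripts begin, against 2 at the most upstream start. In the full 250 bases before this internal RCAN1 start there were 4 copies of GGAAA, 1 of TGACGTCA and 1 of the AP-1 motif TGANTCA. The same window at the other 5 RCAN1 starts, among them both starts further downstream, held neither GGAAA nor TGACGTCA, and 1 of them held TGANTCA. Among 35116 human promoters of the same length, searched on both strands, 55.6% held GGAAA at least once and 1.87% held it at least 4 times, while 6.57% held TGANTCA and 1.65% held TGACGTCA. The internal RCAN1 window was chosen for its motifs, so these shares do not measure how unusual it is. Over the full 250 bases its GC content was 46.8%, against 72.0% before the most upstream RCAN1 start and 73.2% for NFATC4. A match shows only that these letters are present in the window. The counts are sums over all annotated RCAN1 transcripts, so they do not show from which start site the RNA came.

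Vehicle replicate 3 stood apart from the other libraries. In vehicle replicate 3, the deviation of a gene from its mean over libraries went up with the gene's GC content by 0.658 on the log2 scale per 10 percentage points. In the other 7 libraries this slope lay between -0.181 and -0.0319. The most abundant gene was RPPH1, the RNA of RNase P, in vehicle replicate 3 (3.08% of its counts) and RN7SL1, the RNA of the signal recognition particle, in the other 7 (3.89% to 6.41%). Total counts ran from 32574716 to 36634184 per vehicle library and from 36246466 to 38545695 per TP-472 library. Values without this library are given beside results that it moved.

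Only RCAN1 and NFATC4 of the 9 genes passed the thresholds used for all genes, an adjusted p under 0.05 and a fold change over 1.5 in the quasi-likelihood test of edgeR. RCAN1 was higher with TP-472 (39.8 ± 2.04 against 20.4 ± 6.35 CPM, mean ± SD, n = 4 each) and NFATC4 was lower (4.67 ± 0.802 against 37.4 ± 3.4 CPM). CPM is a count scaled to a common library size, with a correction for library composition. The other 7 genes were not called. Over all 14073 genes tested, 26.9% were called, 12.0% as higher and 14.9% as lower. Since the genes were chosen with this comparison known, nothing is read from their count beside that background. Without vehicle replicate 3, 25.5% of the genes tested were called, and RCAN1 and NFATC4 were again the only 2 of the 9. The median log2 fold change of the 9 genes was -0.40, against -0.03 for all genes tested.

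**Figure D1:**
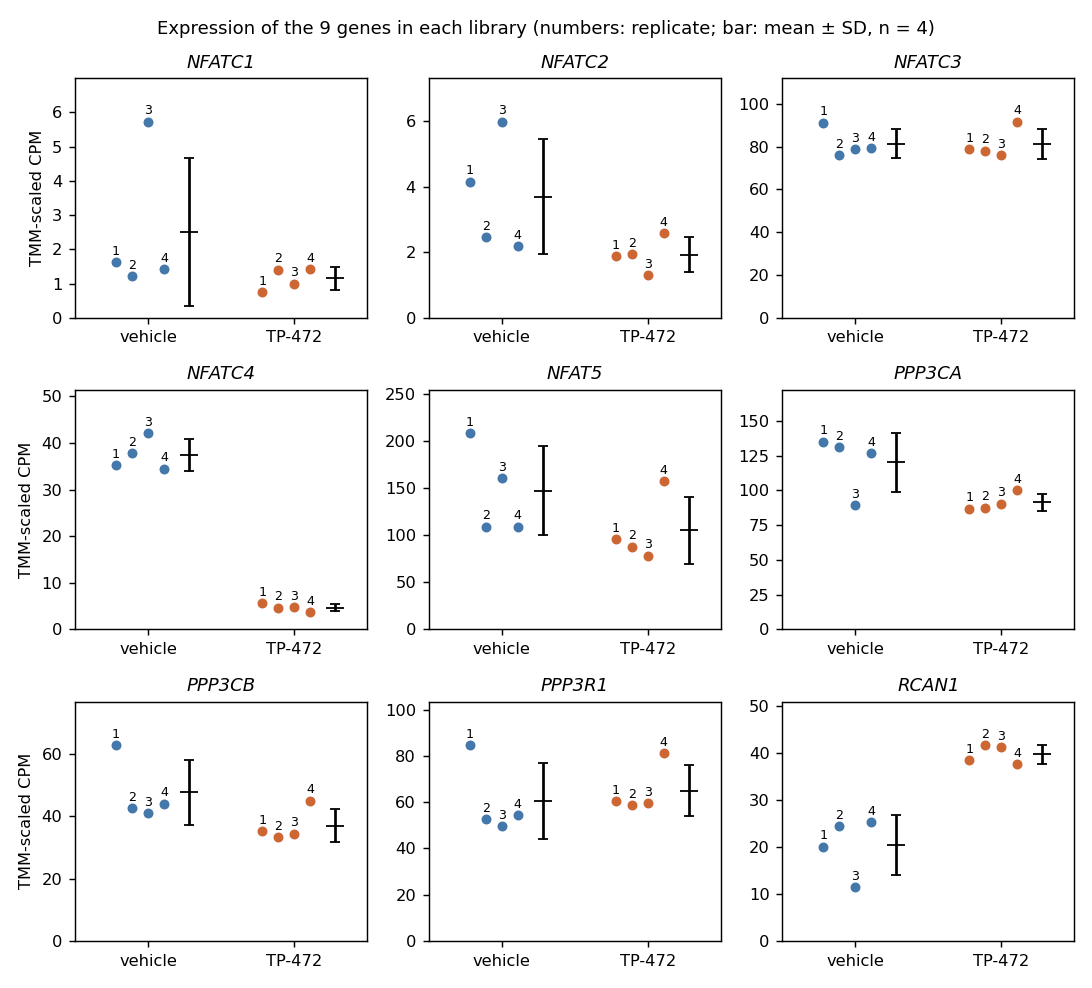
TMM-scaled CPM of each of the 9 genes (1 panel per gene, axis from 0) in every vehicle and TP-472 library, with points numbered by replicate and bars for the mean ± SD (n = 4). The groups are apart for NFATC4 and RCAN1 and overlap for the other 7 genes.

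PPP3CA, the main catalytic subunit (ENSG00000138814.17, chr4:101023409-101348278, minus strand; here and below GENCODE 29 on GRCh38), was measured at 135, 131, 89.2 and 127 CPM in vehicle replicates 1 to 4 and at 86.8, 87.6, 90.5 and 100 CPM with TP-472. All TP-472 libraries were lower than 3 of the vehicle libraries, and vehicle replicate 3 lay among them, so the groups overlapped. The log2 fold change was -0.40 ± 0.14 (SE). Without vehicle replicate 3 it was -0.52 ± 0.066, with the groups apart but below the fold threshold.

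PPP3CB, the second widely expressed catalytic subunit (ENSG00000107758.15, chr10:73436428-73496024, minus strand), was at 62.9, 42.5, 40.9 and 44.0 CPM in vehicle and at 35.1, 33.3, 34.4 and 45.0 CPM with TP-472. Vehicle replicate 1 and TP-472 replicate 4 stood above the rest of their groups, and the groups overlapped through TP-472 replicate 4. The log2 fold change was -0.36 ± 0.17, or -0.20 without vehicle replicate 1 and -0.53 after the GC correction. The ratio of PPP3CA to PPP3CB per kb of exon was 2.51 ± 0.469 in vehicle and 2.43 ± 0.186 with TP-472 (SD, n = 4 each), with ranges that overlapped.

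PPP3R1, the calcium-binding regulatory subunit (ENSG00000221823.11, chr2:68178857-68256237, minus strand), was at 84.8, 52.6, 49.5 and 54.5 CPM in vehicle and at 60.5, 58.7, 59.6 and 81.3 CPM with TP-472. The same 2 libraries, vehicle replicate 1 and TP-472 replicate 4, were the highest of their groups. The log2 fold change of 0.11 ± 0.19 was smaller than its error, was 0.32 without vehicle replicate 1, -0.02 without TP-472 replicate 4 and -0.06 after a correction for GC content. None of the 3 calcineurin subunits was called.

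NFATC4, the calcineurin-regulated factor encoded on chromosome 14 (ENSG00000100968.14, chr14:24365673-24379604, plus strand), showed the largest difference of the 9 genes. It was at 35.3, 37.8, 42.1 and 34.5 CPM in vehicle and at 5.56, 4.65, 4.83 and 3.62 CPM with TP-472. These values rest on 1229 to 1453 estimated reads per vehicle library and 137 to 215 per TP-472 library. Every TP-472 library was far below every vehicle library, and the spread within each group was small beside the gap. The mean was 8.02-fold lower with TP-472, with a fitted log2 fold change of -3.00 ± 0.16. Only 0.334% of the genes tested had a larger absolute log2 fold change, and NFATC4 was the gene with the 13th lowest. The log2 fold change was -2.94 ± 0.12 without vehicle replicate 3 and -2.75 after the GC correction.

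NFATC3, also regulated by calcineurin (ENSG00000072736.19, chr16:68084751-68229259, plus strand), was at 91.2, 76.1, 79.0 and 79.2 CPM in vehicle and at 79.0, 78.1, 76.0 and 91.7 CPM with TP-472. The groups covered the same range and their means were 81.4 ± 6.7 and 81.2 ± 7.09 CPM. The log2 fold change was 0.00 when rounded, with an SE of 0.11.

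NFATC1 and NFATC2, the members best known from lymphocytes, were near the lower limit of what was tested. NFATC1 (ENSG00000131196.17, chr18:79395856-79529325, plus strand) was at 1.63, 1.21, 5.73 and 1.43 CPM in vehicle and at 0.751, 1.41, 0.999 and 1.43 CPM with TP-472. Its vehicle mean was set by replicate 3, which was 4.02 times the mean of the other vehicle libraries, and its log2 fold change went from -1.12 ± 0.52 to -0.32 ± 0.25 without that library. The longest NFATC1 transcript has a GC content of 60.2%. NFATC2 (ENSG00000101096.20, chr20:51386957-51562831, minus strand) was at 4.16, 2.47, 5.99 and 2.19 CPM in vehicle and at 1.89, 1.94, 1.30 and 2.59 CPM with TP-472. The groups overlapped, and the log2 fold change of -0.94 ± 0.35 became -0.60 ± 0.28 without vehicle replicate 3. NFATC2 passed the thresholds in 5 of 18 alternative analyses and not in the others.

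NFAT5, the osmotic stress factor (ENSG00000102908.22, chr16:69565094-69704666, plus strand), was at 208, 109, 160 and 109 CPM in vehicle and at 95.9, 87.6, 78.2 and 157 CPM with TP-472. TP-472 replicate 4 lay within the vehicle range and well above the other 3 TP-472 libraries. The log2 fold change was -0.48 ± 0.28 and ran from -0.75 without TP-472 replicate 4 to -0.27 without vehicle replicate 1.

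RCAN1 (ENSG00000159200.18, chr21:34513142-34615142, minus strand) was at 20.1, 24.5, 11.5 and 25.3 CPM in vehicle and at 38.5, 41.7, 41.4 and 37.7 CPM with TP-472. All 4 TP-472 libraries were above all 4 vehicle libraries, and the TP-472 libraries lay close together. The estimated reads were 396 to 901 per vehicle library and 1426 to 1493 per TP-472 library. The mean was 1.96-fold higher with TP-472, with a log2 fold change of 0.97 ± 0.22. Vehicle replicate 3 was the lowest library at 0.491 of the mean of the other vehicle libraries. Without it the ratio was 1.71 and the log2 fold change 0.77 ± 0.089, and after the GC correction the log2 fold change was 0.89. Of the 9 genes, these 2 (RCAN1 and NFATC4) had groups that did not overlap, as did 45.4% of all genes tested.

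**Figure D2:**
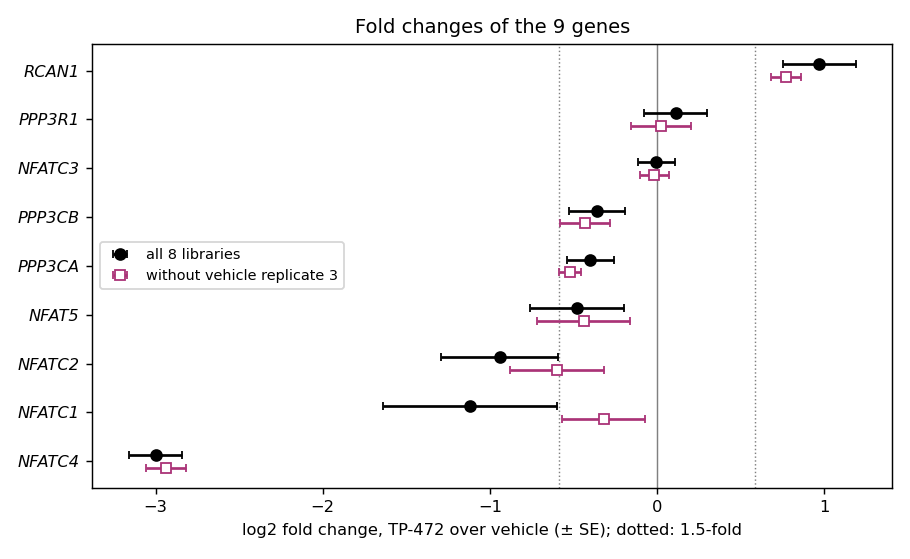
Log2 fold change (TP-472 minus vehicle) of the 9 genes, with bars of 1 SE, from all 8 libraries and without vehicle replicate 3, and dotted lines at a fold change of 1.5. NFATC4 lies near -3 in both fits, RCAN1 moves from 0.97 to 0.77 and NFATC1 from -1.12 to -0.32.

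To compare the genes with each other, CPM was divided by the length of all annotated exons in kb. In vehicle the order was PPP3CA (23.1 ± 4.05 CPM per kb, SD, n = 4), PPP3R1 (17.9 ± 4.89), PPP3CB (9.34 ± 2.02), NFATC3 (9.24 ± 0.761), NFAT5 (8.93 ± 2.9), NFATC4 (4.43 ± 0.403), RCAN1 (2.91 ± 0.909), NFATC2 (0.447 ± 0.212) and NFATC1 (0.276 ± 0.238). The ranges of PPP3CA and PPP3R1 overlapped, as did those of PPP3CB and NFATC3, of NFATC3 and NFAT5, and of NFATC2 and NFATC1. The other neighbours in this order were apart. With TP-472, NFATC4 was at 0.553 ± 0.0951 CPM per kb and RCAN1 at 5.70 ± 0.293, so that RCAN1, which ranked below NFATC4 in vehicle, ranked above it and overlapped in range with NFAT5 (6.38 ± 2.18). PPP3R1 (19.3 ± 3.24) and PPP3CA (17.5 ± 1.17) led with TP-472 and overlapped, followed by NFATC3 (9.22 ± 0.805) and PPP3CB (7.26 ± 1.06). The place of RCAN1 depends on the length used: with the longest transcript in place of all exons it ranked 6 in vehicle and 3 with TP-472. NFATC4 then ranked 7 in both groups. By that length the mean of RCAN1 (7.23 CPM per kb) was already above that of NFATC4 (6.56) in vehicle, and the 2 means did not change order. Their vehicle ranges overlapped, since RCAN1 was below NFATC4 in vehicle replicate 3.

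The make-up of NFAT mRNA differed between the groups mainly in the shares of NFATC4 and NFATC3. NFATC4 made up 15.0, 22.2, 19.9 and 20.3% of the summed per-kb level of the 5 NFAT genes in vehicle, a mean of 19.3% ± 3.06, and 4.18, 3.64, 4.02 and 2.05% with TP-472, a mean of 3.47% ± 0.972. No vehicle library was near any TP-472 library. NFATC3 made up 40.1% ± 4.3 in vehicle and 56.5% ± 4.68 with TP-472, although its own CPM was alike in both, and NFAT5 made up 37.6% ± 5.97 and 37.9% ± 5.5. NFATC1 and NFATC2 together stayed the smallest parts, with NFATC2 at 1.87% ± 0.707 in vehicle and 1.4% ± 0.2 with TP-472. The summed level was 23.3 ± 3.82 CPM per kb in vehicle (20.2 to 27.9) and 16.5 ± 2.98 with TP-472 (14.2 to 20.9), with ranges that overlapped.

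**Figure D3:**
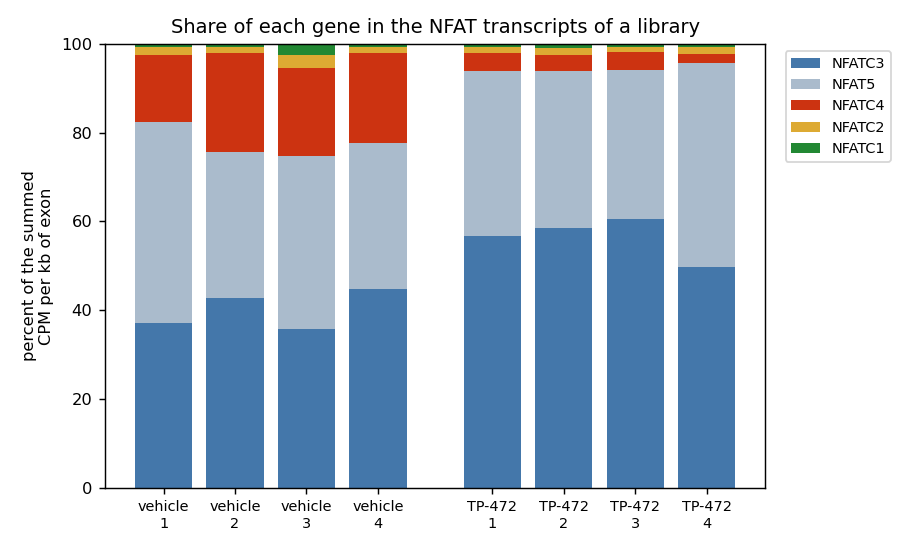
Percent of the summed CPM per kb of the 5 NFAT genes taken by each of them in every library (stacked bars, 0 to 100%). NFATC4 takes 15.0 to 22.2% in the vehicle libraries and 2.05 to 4.18% in the TP-472 libraries.

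The genes also varied together within groups. Vehicle replicate 1 and TP-472 replicate 4 were the highest libraries of their groups for NFATC3, NFAT5, PPP3CA, PPP3CB and PPP3R1. In these 2 libraries RN7SL1 took 3.89 and 4.01% of the counts, the lowest shares of the 7 libraries it led, and the part of that difference in the levels was not tested. Over the 8 libraries, which share the treatment and these library differences, the correlation of log2 CPM was 0.904 for NFATC3 and PPP3R1, 0.870 for NFAT5 and PPP3CB, and -0.860 for NFATC4 and RCAN1. RCAN1 had similar negative correlations with NFATC2 (-0.901) and NFATC1 (-0.851), which were not called. Vehicle replicate 3 was the highest vehicle library for NFATC1 and NFATC2 and the lowest for RCAN1. It was at 4.02, 2.04 and 0.491 times the mean of the other vehicle libraries for NFATC1, NFATC2 and RCAN1. The correlations were not computed without it. The 5 genes most like RCAN1 among 11077 genes whose mean level was 5 CPM or more were PGM2, SNHG32, CHAC2, NDUFAF5 and VTI1B, with Pearson correlations of 0.9993 to 0.9983 over 8 libraries. The 5 most like NFATC4 were MTMR11, XAF1, MX1, PLCD4 and DHTKD1, at 0.9968 to 0.9957. With 2 groups of 4 libraries that differ, 1196 genes had a correlation over 0.95 with RCAN1 and 356 with NFATC4.

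SK-UT-1 expressed some defining genes of its labelled lineage and lacked others. Of 10 smooth muscle genes, 8 were tested and 3 were lower with TP-472, namely DES, TAGLN and LMOD1, where 14.9% of all genes tested were. For DES and LMOD1 no TP-472 library was above 1 CPM by total count, the scale of the filter. They passed the filter through the vehicle libraries alone and had to be lower, so nothing is read from this count beside that share. ACTA2, smooth muscle actin, was called lower as well without vehicle replicate 3 (log2 fold change -0.59, against -0.55 with it). MYH11, the smooth muscle myosin, had 0, 0, 0 and 1 reads in the vehicle libraries and 10, 8, 7 and 10 with TP-472, and MYOCD at most 8 in any library. None of 7 lymphoid genes reached the filter and 3 of them had no read in any library. Their summed level was 0.0287 to 0.289 CPM in vehicle and 0.211 to 0.336 CPM with TP-472, with CD79A the most abundant. None of 6 endothelial genes reached the filter (summed level 0.249 to 0.978 CPM, with CLDN5 the most abundant), and CD68 alone of 6 myeloid genes did and was not called. Of 6 epithelial genes 3 were tested, with KRT18 higher and KRT19 lower. After the GC correction TAGLN and KRT19 were not called, and KRT8 and CD68 were called higher.

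The genes around the 9, in 7 lists with 106 genes, were counted in the same test. Of these 71 were tested, 15 were called higher and 10 lower, that is 21.1 and 14.1% beside 12.0 and 14.9% of all genes tested. The lists were chosen with results known and 3 of the 15 passed the filter through the TP-472 libraries alone, so nothing is read from these shares. Because of that choice, the adjusted p-values of list genes (edgeR, over all genes tested) are description. They are not tests of genes picked beforehand. Of the 25 genes called, 12 were called in all 8 fits that left out 1 library. Other calcineurin regulators and drug-binding partners counted 7 tested genes, with 1 higher and 1 lower. AKAP5, an anchoring protein that holds calcineurin near membrane channels, rose from 2.54 ± 0.884 to 5.11 ± 0.459 CPM (log2 fold change 1.01 ± 0.24, adjusted p = 0.013). CABIN1, a calcineurin-binding inhibitor, fell from 143 ± 82.7 to 74.4 ± 6.22 CPM (adjusted p = 0.0478), but its log2 fold change of -0.95 was -0.47 and not called without vehicle replicate 3. FKBP1A and PPIA, the receptors of tacrolimus and ciclosporin, were not called (adjusted p = 0.344 and 0.237). The third catalytic subunit, PPP3CC, was at 16.9 CPM in vehicle and 16.3 CPM with TP-472, and PPP3R2 had no read in any library. RCAN3, a relative of RCAN1, had groups that did not overlap and a log2 fold change of -0.56 ± 0.14, just under the fold threshold (adjusted p = 0.013). It was called lower without vehicle replicate 3 (-0.65) and after the GC correction (-0.71).

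Of 19 tested genes of calcium entry, release and removal, 4 rose and 4 fell. STIM2, a sensor of calcium in the endoplasmic reticulum, rose from 13.7 ± 2.43 to 27.7 ± 2.11 CPM (log2 fold change 1.01 ± 0.15, adjusted p = 0.00148). ITPR1, an IP3 receptor that releases stored calcium, rose from 21.9 ± 2.3 to 38.7 ± 2.81 CPM (0.82 ± 0.12, adjusted p = 0.00115), and ATP2B1, a pump that exports calcium, from 18.9 ± 6.09 to 39.7 ± 3.21 CPM (1.07 ± 0.23, adjusted p = 0.00853). CALM2 and CALM3, which encode calmodulin, were not called (log2 fold changes 0.18 and -0.18). ORAI3, a plasma membrane calcium channel, fell from 8.52 ± 0.197 to 4.97 ± 0.689 CPM (-0.78 ± 0.14, adjusted p = 0.0035) and was not called after the GC correction. The other 3 that fell were ATP2B4, PLCG1 and PLCB3, of which PLCG1 and PLCB3 were not called without vehicle replicate 3. ATP2B4 had groups that overlapped and was called in 4 of the 8 fits that left out a library.

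All 11 kinases that phosphorylate NFAT proteins were tested, and 1 fell. This was DYRK1B, at 10.6 ± 7.64 CPM in vehicle and 4.05 ± 0.344 CPM with TP-472 (log2 fold change -1.39 ± 0.41, adjusted p = 0.0288, -0.76 without vehicle replicate 3), which was called in 4 of the 8 fits that left out a library. CSNK1A1 and CSNK1E, the most abundant that did not pass, had log2 fold changes of 0.44 and -0.14. Of 7 tested genes of nuclear transport, 0 were called by edgeR, DESeq2 or limma-voom, and 3 had an unadjusted p under 0.05 in edgeR. The exporter XPO1 and the importin KPNB1, the most abundant, had log2 fold changes of 0.07 and 0.10. HOMER2 was called lower after the GC correction (-0.62), against -0.44 before it.

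The partners of NFAT on DNA depended on vehicle replicate 3 more than the other lists. Of 12 tested, 2 rose and 2 fell, and without that library 5 rose and 0 fell. The AP-1 subunit FOSL1 rose from 9.90 ± 6.75 to 28.4 ± 3.01 CPM (log2 fold change 1.52 ± 0.39, adjusted p = 0.0158) and JUN from 68.1 ± 43.8 to 153 ± 7.23 CPM (1.16 ± 0.35, adjusted p = 0.0303, called in 1 of the 8 fits that left out a library). Their log2 fold changes were 2.11 and 1.72 without vehicle replicate 3. FOS, FOSB and JUNB passed as well without that library, at 0.68, 0.83 and 0.67. FOSL2 and GATA4 fell (log2 fold changes -0.67 and -0.92) and were not called without it, at -0.47 and -0.55. The acetyltransferases EP300 and CREBBP, coactivators of NFAT, were not called, at log2 fold changes of -0.70 ± 0.39 and -1.20 ± 0.44 (adjusted p = 0.176 and 0.058) that were -0.25 and -0.60 without vehicle replicate 3. CREBBP was called lower after the GC correction (-0.92, adjusted p = 0.047).

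Of 23 genes known as NFAT targets in lymphocytes and other cells, 16 were under the filter, 4 of these with no read in any library (IL2, IL4, CD40LG and CTLA4). The other 7 were all higher with TP-472. For 3 of the 7 (IL6, NR4A2 and NR4A3) no vehicle library was above 1 CPM by total count, the scale of the filter, so they passed the filter through the TP-472 libraries alone and had to differ, so that they are given without p-values and the count is no support for a direction of the list. NR4A3, an orphan nuclear receptor of the early response, had 5, 6, 2 and 6 reads in vehicle and 142, 155, 163 and 242 with TP-472 (log2 fold change 5.10 ± 0.32). NR4A2 had 11, 5, 6 and 3 reads in vehicle and 66, 63, 73 and 113 with TP-472 (3.56 ± 0.36). The cytokine IL6 had 1, 2, 0 and 7 reads in vehicle and 94, 46, 57 and 90 with TP-472 (4.70 ± 0.58). CXCL8, a chemokine, went from 13.2 ± 5.11 to 158 ± 11.9 CPM, and F3, tissue factor, from 2.62 ± 0.639 to 4.73 ± 0.412 CPM (adjusted p = 0.0131). NR4A1 was called with groups that overlapped (log2 fold change 0.74, adjusted p = 0.0459). Of the 8 fits that left out a library it was called in 1, the fit without vehicle replicate 3, at 1.08. TNFRSF9 had 17, 17, 33 and 15 reads in vehicle and 50, 47, 27 and 39 with TP-472, with overlapping groups, and vehicle replicate 3 was the only vehicle library that counted toward its passing the filter, so it too is given without a p-value. Its log2 fold change was 0.91 ± 0.32, 1.25 without that library and 0.76, not called, after the GC correction. Many of these genes are also known targets of NF-kB, AP-1 or CREB.

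Of 14 genes known to respond to NFAT5 or to osmotic stress, 8 were tested, with 1 higher and 2 lower. SGK1, a kinase induced by cell shrinkage, rose from 93.7 ± 25 to 158 ± 3.16 CPM (log2 fold change 0.75 ± 0.18, adjusted p = 0.0131). SLC38A2, an amino acid transporter, was at 1368 ± 484 CPM in vehicle and 800 ± 24.6 CPM with TP-472 (-0.77, adjusted p = 0.0478, and -1.01 without vehicle replicate 3), and was called in 1 of the 8 fits that left out a library. PNPLA6, a phospholipase, fell as well (log2 fold change -1.07, adjusted p = 0.0176, -0.69 without vehicle replicate 3) and was not called after the GC correction. SLC5A3, the inositol transporter that is a main NFAT5 target, was not called (log2 fold change 0.09), nor was HSPA4L, whose groups did not overlap and which missed the fold threshold alone (0.51, adjusted p = 0.0287).

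**Figure D4:**
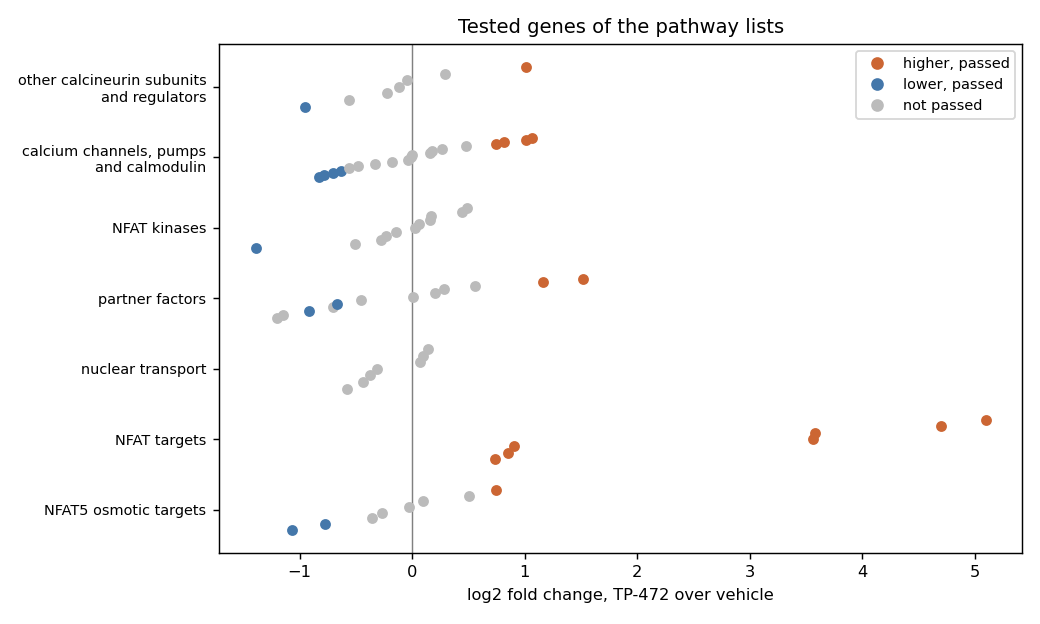
Log2 fold change (TP-472 minus vehicle) of every tested gene of the 7 lists around the 9 genes, 1 point per gene and 1 row per list, colored by whether the gene passed the thresholds and in which direction. The tested NFAT target genes lie above 0, 3 of them having passed the filter through the TP-472 libraries alone, while the other lists lie on both sides of 0. NR4A1 and TNFRSF9 have overlapping groups, and no direction of the target list is read from this.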

How the data were processed

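Total RNA of SK-UT-1 cells (4 vehicle and 4 TP-472 libraries) had been sequenced strand-specifically. The authors aligned reads with STAR 2.6.1d, estimated transcript abundance with Salmon 1.4.0 and summed it to genes with tximport and GENCODE release 34 on GRCh38, per the labels and the methods of the study. The deposited values are estimated counts, neither normalized nor filtered, and 13.8% to 23.2% of them per library were not whole (differing from a whole number by over 1e-06).

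Here the expected counts were rounded, those at over 1 CPM in 4 or more of the 8 libraries were kept (14073 of 60282 genes), and TP-472 was compared with vehicle with edgeR 4.0.16 and its quasi-likelihood F test (R 4.3.3, TMM scaling, Benjamini-Hochberg adjustment over all genes tested). A gene was called at an adjusted p under 0.05 and a fold change over 1.5, thresholds taken from the study. CPM are TMM-scaled. Lengths and coordinates came from GENCODE 29. Totals were 32574716 to 38545695 counts per library. Counting error weighs most in genes with few reads, and its part beside the spread between replicates was not measured. Gene-level estimates cannot separate isoforms. No library was a copy of another of its group (lowest mean chi-square per gene 12.8, near 1 where libraries differ by counting error alone).

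The 9 genes and the lists were chosen with earlier results of these data known. Named from each list were genes past the thresholds (at most 6 per direction, by fold) and up to 2 abundant ones that did not pass. NR4A1, HOMER2, FOS, FOSB, JUNB, PPP3CC, RCAN3, GSK3B and ITPR2 and genes under the filter or among the cell type markers were named after their values were seen. The value of 1 list gene is not reported here, although counts include it. Alternatives were DESeq2 1.42.0, limma-voom (limma 3.58.1), other scalings, filters and fold limits, unrounded counts, a replicate block and each library left out with the gene set kept. A correction for GC content (known for 99.3% of genes tested) was chosen after seeing the data. The edgeR code was first tested on simulated data.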

Additional observations from a re-analysis of the deposited data

Results flagged for a closer look

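In each group of 4 libraries, values that stood apart from the other 3 by Dixon's ratio were listed for 45 named genes, that is 90 groups. A total of 15 values stood apart, where chance gives about 1 in 20 groups. Of these 9 belonged to vehicle replicate 3, the library with the GC slope given above, and 5 to calcineurin and NFAT genes.

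NFATC1 was at 5.73 CPM in vehicle replicate 3, against 1.21 to 1.63 in the other vehicle libraries. PPP3CB was at 62.9 CPM in vehicle replicate 1 (others 40.9 to 44.0) and at 45.0 CPM in TP-472 replicate 4 (others 33.3 to 35.1). PPP3R1 stood apart in the same libraries, at 84.8 CPM in vehicle replicate 1 (others 49.5 to 54.5) and at 81.3 CPM in TP-472 replicate 4 (others 58.7 to 60.5). A catalytic and the regulatory subunit were thus high together in 1 library of each group. This was not particular to calcineurin. The kinase gene GSK3B was at 110 CPM in vehicle replicate 1 (others 86.2 to 91.0) and at 113 CPM in TP-472 replicate 4 (others 87.3 to 93.0). CALM3 went the other way and was lowest in both, at 285 and 271 CPM.

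Among the surrounding genes, vehicle replicate 3 was the highest vehicle library for PLCB3 (190 CPM, others 102 to 106), CSNK1E (215, others 125 to 135), JUN (134, others 43.1 to 49.9), GATA4 (5.33, others 2.33 to 2.64) and TNFRSF9 (0.955, others 0.422 to 0.489). It was the lowest for XPO1 (326 CPM, others 607 to 664), SLC5A3 (77.0, others 157 to 163) and SLC38A2 (649, others 1510 to 1672). CALM3 was lowest in vehicle replicate 1 (285 CPM, others 366 to 375), and SLC38A2 was highest in TP-472 replicate 4 (837 CPM, others 785 to 792).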

How the results depend on the processing

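NFATC4 and RCAN1 kept their direction and their call in all 19 alternatives run for each besides other fold limits, with log2 fold changes of -3.10 to -2.90 for NFATC4 as libraries were left out, and of 0.77 to 1.09 for RCAN1 over the alternatives. NFATC2 was additionally called by DESeq2, without a filter, without vehicle replicate 2, without vehicle replicate 4 and after the GC correction. With a fold change over 2 required, 1704 genes, 1 of the 9 (NFATC4) and 11 list genes were called, in place of 3789, 2 and 25. With a filter at 5 CPM, 16 list genes were called. Leaving out a library gave 2690 to 4223 genes, 2 to 3 of the 9, and 15 to 24 list genes (15 without TP-472 replicate 2 or replicate 3, and 16 without replicate 1). The cause was not tested.

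Libraries with the same replicate number did not deviate together (correlations of -0.0554, 0.116, -0.171 and -0.177 for numbers 1 to 4, and 1 of 8 libraries correlating best with its own number). With the replicate number as a block, 3055 genes, 2 of the 9 and 20 list genes were called. NFATC1 and NFATC2, near the filter, rest on few reads, and no difference for them was established. Whether depth or the spread between libraries accounts for this was not tested.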

Other observations

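Several NFAT target genes under the filter had few reads, and their values are given without a test. PTGS2, the inducible cyclooxygenase, had 0 reads in every vehicle library and 5, 4, 5 and 10 with TP-472. EGR2, an early-response zinc finger factor that NFAT is known to induce, had 7, 4, 12 and 3 reads in vehicle and 13, 18, 20 and 16 with TP-472. EGR3 had 19, 9, 44 and 17 reads in vehicle and 20, 31, 39 and 47 with TP-472, with overlapping groups. GATA6, a partner of NFAT in smooth muscle, had 3, 1, 2 and 1 reads in vehicle and 23, 16, 9 and 14 with TP-472. A gain of a few reads was not particular to these lists. The endothelial marker PECAM1 had 0, 1, 0 and 1 reads in vehicle and 9, 7, 4 and 9 with TP-472. The epithelial marker EPCAM went the other way, with 24, 22, 29 and 28 reads in vehicle and 8, 11, 9 and 8 with TP-472. All of these genes were named after their values were seen.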
